A study of Sus scrofa with 4 samples.

Results

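The hair shaft keratins KRT31, KRT32, KRT35, KRT36, KRT39, KRT40, KRT82, KRT84 and KRT85 were read from the raw counts of sorted pig epidermal cells by their gene symbols. Of these 9 genes, 8 had a row among the 29837 named genes, and no row carried the symbol KRT85, so it was not analysed here. The cells came from juvenile transgenic LGR5-H2B-GFP pigs, in which H2B-GFP, a fluorescent histone, had been knocked into the first exon of LGR5 on 1 of its alleles. The line goes back to clonal lines of edited fetal fibroblasts used for somatic cell nuclear transfer, and which animals were founders or progeny is not given in the sources used here. Hair and epidermis were peeled from the dermis, digested to single cells and sorted into GFP-high, GFP-low and GFP-negative cells. The GFP-low cells have no library here. From each of 2 pigs, 88R and 95R, 1 GFP-high library (LGR5-high) and 1 GFP-negative library (LGR5-negative) were sequenced, so n = 2 for each population and every library carried the transgene. GFP stands for activity of the LGR5 promoter, and the nuclear label thins out as cells divide.

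The hair shaft is built in the lower hair follicle. Matrix cells divide next to the dermal papilla, move upward and harden into a central medulla, a cortex and an outer cuticle, and the inner root sheath forms around them. Hair keratins are the cysteine-rich keratins of the shaft. They are divided into acidic type I proteins (KRT31, KRT32, KRT35, KRT36, KRT39 and KRT40) and basic type II proteins (KRT82, KRT84 and KRT85), and a filament needs one of each type. In human hair, KRT35 and KRT85 appear first, in the matrix and early cortex, KRT31 and KRT36 follow in the cortex, and KRT32 and KRT82 belong to the cuticle.

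Before the keratins, the sort was checked. LGR5 had 132 CPM (pig 88R) and 188 CPM (pig 95R) in LGR5-high, and 1.26 and 3.61 CPM in LGR5-negative, where CPM are counts per 1000000 counts of the library, scaled by TMM (trimmed mean of M-values). Below, values of a population are given for pig 88R first and pig 95R second. The libraries held between 30696803 and 32463362 counts on named genes. The hair shaft keratins with a row took 0.0403% and 0.0288% of these in LGR5-negative, and 0.0131% and 0.00865% in LGR5-high. At this depth, 3 counts, taken as the floor, were worth between 0.0873 and 0.105 CPM. All sums and levels are of bulk RNA, in which fewer cells of a type and less RNA per cell cannot be told apart.

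Reads of hair shaft keratins were not absent from the LGR5-high libraries, but the members with the clearest difference were lower there. Which cells of the sorted population held these reads was not tested. With edgeR's quasi-likelihood test and a Benjamini-Hochberg adjusted p-value below 0.05 as the call, 4 of the 7 members that passed the filter on low counts were lower and 0 were higher in LGR5-high, against 22% lower and 22.7% higher among all 15980 tested genes. At an unadjusted p-value below 0.05, 0 of the 7 were higher in edgeR, and DESeq2 called 0 higher. With pigs as a replicate block the same test also called 4 members lower and 0 higher, against 27.2% and 28.5% of all tested genes. The 4 lower members were KRT35, KRT84, KRT31 and KRT36. KRT84 met the filter by its LGR5-negative libraries and not by LGR5-high alone, so the count was also taken with other filters. It was 4 when every gene with at least 1 count was kept and 3 when 10 counts were required in every library, which leaves out KRT84. The other 3 tested members, KRT32, KRT82 and KRT40, did not pass the test in either direction. The median log2 fold change of the 7 was -1.02, beside 0.02 for all tested genes. Scaled by library size alone, KRT31 and KRT36 were no longer called, the median of the 7 was -0.79 beside 0.24 for all genes, and 70.2% of all calls were higher in LGR5-high in place of 50.9%.

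KRT35, the type I keratin of the hair matrix and early cortex, had 339.9 and 254 CPM in LGR5-negative, and 71.0 and 41.3 CPM in LGR5-high. Both LGR5-high values lay below both LGR5-negative values, as was the case for 37.4% of all tested genes. The means were 297 ± 60.9 CPM and 56.1 ± 21.0 CPM (SD, n = 2), and the log2 fold change was -2.40 (standard error, SE, 0.281, edgeR quasi-likelihood adjusted p = 0.00150). With a prior count of 2, KRT35 was 4.79-fold lower in LGR5-high of pig 88R and 6.13-fold lower in that of pig 95R.

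KRT31, the main type I keratin of the cortex, had 44.6 and 34.5 CPM in LGR5-negative, and 24.5 and 14.0 CPM in LGR5-high. The populations did not overlap, as was the case for 37.4% of all tested genes with LGR5-high below. Its log2 fold change was -1.04 (SE 0.278, edgeR quasi-likelihood adjusted p = 0.0277). Without the LGR5-negative library of pig 88R the value was -0.85, and without the LGR5-high library of pig 95R it was -0.69. KRT31 was not called in either fit. Each leaves a single library in a group, so the loss of the call cannot be assigned to the library left out. With pigs as a replicate block KRT31 was called lower (SE 0.127, edgeR quasi-likelihood adjusted p = 1.22e-06). KRT36, another cortex keratin, had 3.93 and 2.85 CPM in LGR5-negative, and 1.89 and 1.45 CPM in LGR5-high. Again both LGR5-high libraries were below both LGR5-negative libraries. The log2 fold change of KRT36 was -1.02 (SE 0.301, edgeR quasi-likelihood adjusted p = 0.0383). DESeq2 gave KRT36 an adjusted p-value of 0.0546, and without LGR5-high of pig 88R, LGR5-negative of pig 88R or LGR5-high of pig 95R its value was -1.23, -0.77 or -0.84 and was not called.

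KRT84 is a type II hair keratin that in humans is better known from the filiform papillae of the tongue than from hair. It had 83 and 65 counts in LGR5-negative, and 16 and 9 counts in the LGR5-high libraries, which is 2.91 and 2.15 CPM against 0.465 and 0.272 CPM. Both LGR5-high libraries lay below both LGR5-negative libraries, as for 37.4% of all tested genes, at low counts throughout. The log2 fold change of KRT84 was -2.76 (SE 0.402, edgeR quasi-likelihood adjusted p = 0.00334). Since KRT84 met the filter by the population in which it is higher, the value that does not depend on that filter is the one with every gene of at least 1 count kept, -2.77 (edgeR quasi-likelihood adjusted p = 0.00181).

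Neither cuticle keratin was called, and their intervals also hold the values of KRT31 and KRT36. KRT32, the type I cuticle keratin, had 10.9 and 4.10 CPM in LGR5-negative, and 4.80 and 9.14 CPM in the LGR5-high libraries. It was thus lower in LGR5-high of pig 88R and higher in LGR5-high of pig 95R, with log2 differences of -1.17 and 1.14. The fit gave -0.10 with a 95% interval from -1.37 to 1.16 (edgeR quasi-likelihood adjusted p = 0.884), which holds changes of more than 2-fold in either direction. KRT82, the type II cuticle keratin, had 36.1 and 11.8 CPM in LGR5-negative and 17.7 and 13.5 CPM in LGR5-high. Only pig 88R showed a lower value in LGR5-high, with log2 differences of -1.03 and 0.18 in pigs 88R and 95R. The fit for KRT82 gave -0.62 with a 95% interval from -1.83 to 0.59 (edgeR quasi-likelihood adjusted p = 0.344). Without LGR5-negative of pig 95R it was -1.22 and was called (adjusted p = 0.00286 from edgeR), and without LGR5-negative of pig 88R it was 0.39.

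Of the 7 tested members, these 2 had the largest ratios between the LGR5-negative libraries. Between the LGR5-negative libraries, pig 88R had 3.05-fold more KRT82 and 2.65-fold more KRT32 CPM than pig 95R. For the other 5 the same ratio lay between 1.06 and 1.38. In LGR5-high, KRT32 was the reverse, with a ratio of 0.525, while KRT82 had 1.31. Log2 differences of opposite sign in the 2 pigs occurred in 14.1% of all tested genes. With 1 library of each population per pig, a population difference that is not the same in the 2 pigs could not be tested.

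**Figure D1:**
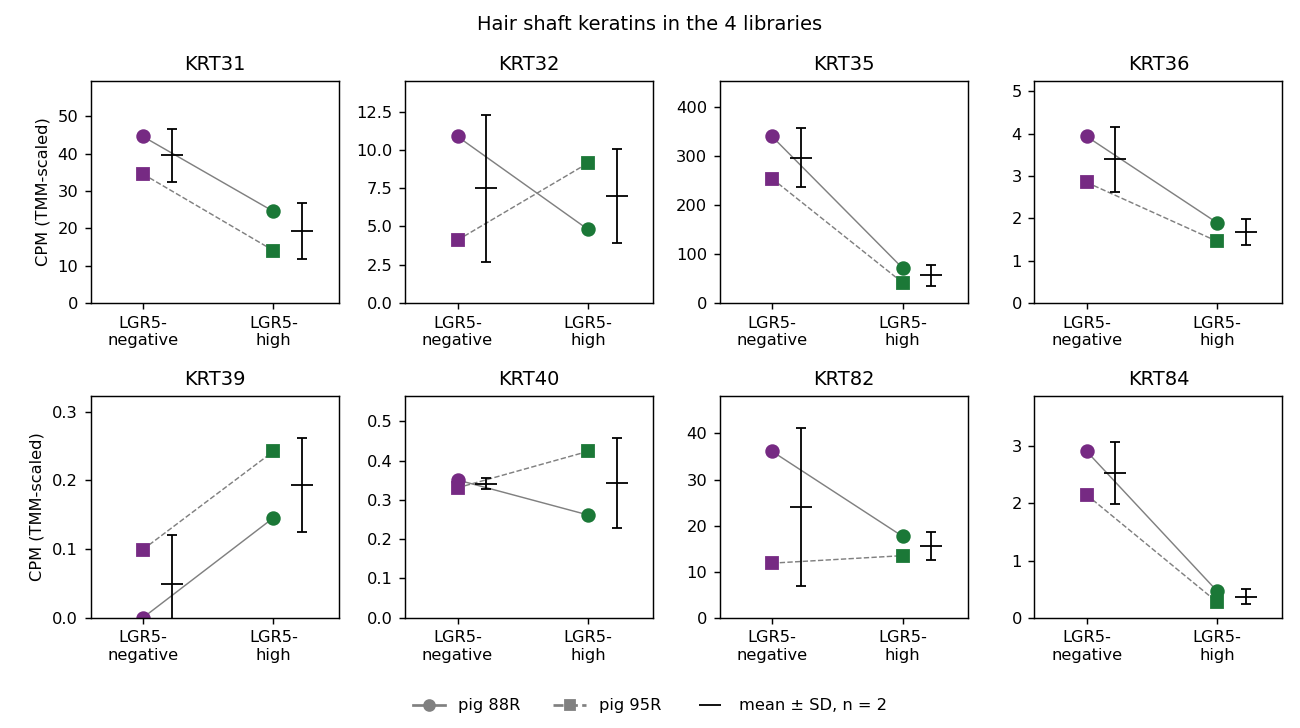
Level of each hair shaft keratin with a row in the counts (vertical axes, CPM after TMM scaling, each starting at 0) in LGR5-negative (purple) and LGR5-high (green) libraries, with circles for pig 88R, squares for pig 95R, lines joining the libraries of a pig, and the mean ± SD of 2 libraries in black. KRT31, KRT35, KRT36 and KRT84 slope down in both pigs, the lines of KRT32 cross, and KRT39 and KRT40 stay under 0.5 CPM. The lower bar of KRT39 in LGR5-negative ends at the axis.

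KRT39 and KRT40 are type I hair keratins of the later shaft, and KRT40 was also the antibody marker of hair shaft cells in the study. KRT40 had 9 and 14 counts in LGR5-high and 10 and 10 counts in LGR5-negative. These values overlap within counting error, since the exact 95% Poisson interval runs from 4.12 to 17.1 for 9 counts and from 7.65 to 23.5 for 14 counts. The log2 fold change of KRT40 was 0.01 with a 95% interval from -1.18 to 1.19 (edgeR quasi-likelihood adjusted p = 0.994). A difference between the populations was therefore not detectable at this depth, and changes up to about the bounds of that interval were not resolved. KRT39 had 5 and 8 counts in LGR5-high and 0 and 3 counts in LGR5-negative, so that both LGR5-negative libraries were at or under the floor. Both LGR5-high libraries lay above both LGR5-negative libraries, as for 39.2% of all tested genes. It did not pass the filter and was not tested. Over both pigs, 13 counts stood against 3, a rate ratio of 3.77 with an exact Poisson interval from 1.04 to 20.6, which covers counting error only.

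The make-up of the hair shaft keratin counts also differed between the populations, on a measure that no scaling between libraries can move. KRT35 held 77.5% (95% Wilson interval 76.7 to 78.2) and 82.0% (81.2 to 82.7) of the counts in LGR5-negative, and 58.8% (57.3 to 60.3) and 51.4% (49.5 to 53.3) in the LGR5-high libraries. These are shares of reads, without correction for transcript length, and the intervals cover counting error only. The total holds only the 8 members with a row, so KRT85 and cluster entries without a gene name are not in it. KRT31 held 10.2% and 11.1% in LGR5-negative against 20.3% and 17.4% in LGR5-high. For each count of KRT35, KRT31 had 0.131 and 0.136 counts in LGR5-negative and 0.345 and 0.339 in LGR5-high, so the 2 pigs were close together and the populations were apart. KRT36 had 0.0116 and 0.0112 counts for each count of KRT35 in LGR5-negative and 0.0266 and 0.0352 in LGR5-high. The cuticle keratins shifted more, but with the pigs further apart than for KRT31. KRT82 had 0.106 and 0.0467 in LGR5-negative and 0.249 and 0.326 in LGR5-high. KRT32 had 0.0320 and 0.0162 in LGR5-negative and 0.0676 and 0.221 in LGR5-high. KRT84 kept nearer to KRT35, with 0.00857 and 0.00847 in LGR5-negative and 0.00656 and 0.00659 in LGR5-high. An exact 2-sided permutation test of the KRT31 to KRT35 ratio gave p = 0.333, the smallest that 2 libraries against 2 allow.

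**Figure D2:**
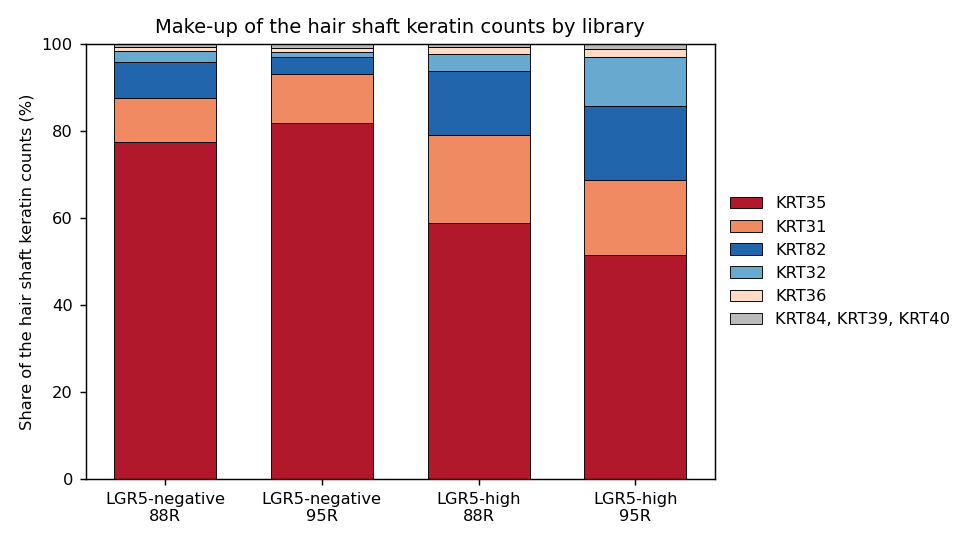
Share of the summed counts of the 8 hair shaft keratins with a row (vertical axis, percent, bars sum to 100) taken by each gene in the 4 libraries (horizontal axis). KRT35 takes 77.5% and 82.0% in the LGR5-negative libraries and 58.8% and 51.4% in the LGR5-high libraries, while the shares of KRT31 and KRT82 are larger in LGR5-high.

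In the RefSeq annotation of Sscrofa11.1, used for the order of genes only, KRT36, KRT35 and KRT32 lie next to each other, with KRT31 after 1 entry without a gene name. KRT40 and KRT39 are neighbours further along the same cluster, and KRT84 and KRT82 are neighbours in the type II cluster. No annotated gene overlaps any of the 8. Neighbours were not always called alike, since KRT35 was called lower beside KRT32, which was not called, and KRT84 was called lower beside KRT82, which was not called. Of 2 entries without a gene name between KRT36 and KRT33A, 1 was tested and 0 were called. Of 23 between KRT33A and KRT39, 2 were tested and 0 were called by edgeR. With pigs as a replicate block 1 of these was higher, LOC100514981, which met the filter by LGR5-high only. Between KRT80 and KRT82 lie 9 such entries, of which 6 were tested. By edgeR 3 were lower and 0 higher in LGR5-high, against 22% and 22.7% of all tested genes. With the block 4 were lower and 1 was higher, against 27.2% and 28.5%. Among the lower were LOC100524022 and LOC100525573. These 2 entries, singled out after their values were seen because they precede KRT84 directly, carry no gene name in the tables used here. LOC100524022 had 298 and 230.0 CPM in LGR5-negative, and 90.6 and 42.4 CPM in LGR5-high. The fitted log2 fold change was -1.99 (SE 0.355, edgeR quasi-likelihood adjusted p = 0.00689). For each count of KRT35, LOC100524022 had 0.877 and 0.906 counts in LGR5-negative and 1.28 and 1.03 in LGR5-high. LOC100525573 had 79 and 63 counts in LGR5-negative and 14 and 12 in LGR5-high. Keratin genes of a cluster are alike in sequence, and the rule by which the counting treated reads that match several of them is not given in the sources used here, which makes all these counts uncertain to that extent.

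Of 8 further hair keratins, KRT34 and KRT33A had a row, both were tested, and 0 were called by edgeR, by DESeq2 or with pigs as a replicate block, with 0 at an unadjusted p-value below 0.05 in edgeR. Their median log2 fold change was -0.51, and it was -1.19 without LGR5-high of pig 88R and -0.07 without LGR5-high of pig 95R. KRT34, a cortex keratin, had 1.30 and 1.19 CPM in LGR5-negative and 0.844 and 0.484 CPM in LGR5-high. The fitted log2 fold change was -0.90 (edgeR quasi-likelihood adjusted p = 0.118). KRT33A had 2.07 and 2.05 CPM in LGR5-negative and 2.73 and 1.03 CPM in LGR5-high, where the pigs lay on either side of the LGR5-negative libraries. No row had a symbol starting with KRTAP, the family of keratin-associated proteins that fill the space between the filaments, so these genes were not analysed here.

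Keratins of the inner root sheath, the sleeve that grows with the shaft from the same matrix, went the other way. Of the 5 with a row, 4 were higher and 0 lower in LGR5-high, beside 22.7% and 22% among all tested genes. Their median log2 fold change was 2.70. KRT25 had 738 and 536 CPM in LGR5-high, and 52.8 and 57.3 CPM in LGR5-negative, with a log2 fold change of 3.53 (SE 0.176, edgeR quasi-likelihood adjusted p = 1.06e-04). KRT27, KRT28 and KRT74 had log2 fold changes of 3.99, 2.70 and 2.46, and KRT26, with -0.58, did not pass the test. For each count of a hair shaft keratin, the LGR5-high libraries held 7.48 and 8.09 counts of inner root sheath keratins, and the LGR5-negative libraries 0.146 and 0.231. Both sums hold only the genes with a row and are not corrected for transcript length. The difference between these lists was not tested, since both were read in the same 4 libraries and the genes were chosen with results known.

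Among keratins of the interfollicular epidermis, 5 of 7 tested were lower and 0 higher in LGR5-high, beside 22% and 22.7% among all tested genes. Their median log2 fold change was -2.40. The summed level of these keratins was 11.1-fold higher in LGR5-negative of pig 88R and 10.6-fold in pig 95R, and that of the hair shaft keratins 3.63-fold and 3.86-fold. KRT1, the suprabasal keratin, had a log2 fold change of -3.56 and KRT10 one of -3.44. Of 4 other root sheath and basal keratins, KRT6A was higher, with a log2 fold change of 4.31, and KRT79 was lower, with -0.98. KRT5 and KRT15 had -0.18 and 0.76 and were not called, although with pigs as a replicate block KRT15 was called higher (adjusted p = 2.13e-06 from edgeR). The median of these 4 was 0.29, and it was -0.05 without the LGR5-high library of pig 95R.

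**Figure D3:**
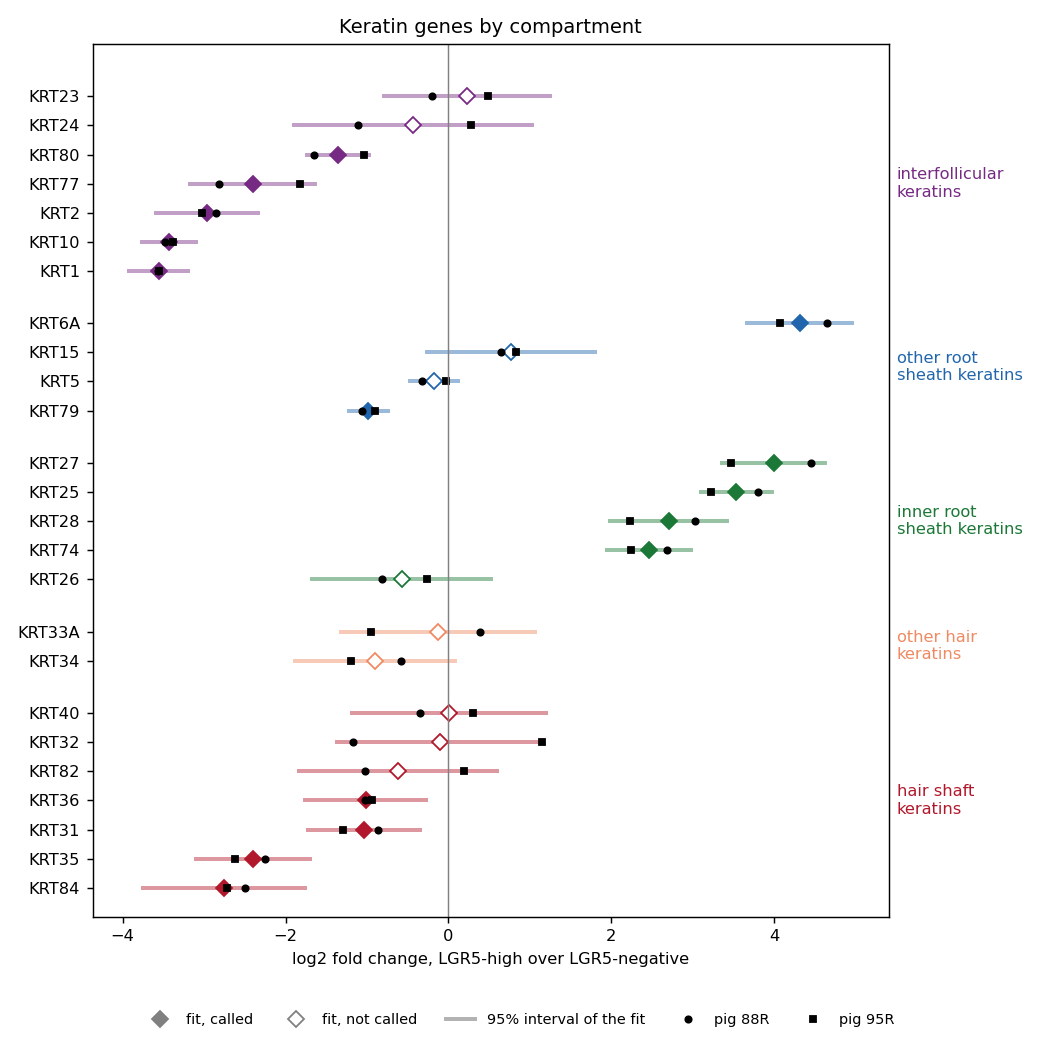
Log2 fold change of LGR5-high over LGR5-negative (horizontal axis) for the tested keratin genes of 5 lists (vertical axis, grouped by colour), with diamonds for the edgeR fit, filled where called, bars for its 95% interval, and black circles and squares for pigs 88R and 95R. The called hair shaft keratins lie between -2.76 and -1.02, 4 inner root sheath keratins lie between 2.46 and 3.99, and KRT32, KRT40 and KRT82 have intervals that cross 0.

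Other proteins of the shaft were called in both directions. Of 9 tested, 4 were higher, 1 was lower and 4 were not called, beside 22.7% higher and 22% lower among all tested genes, with a median log2 fold change of 1.33 that was 0.60 when all genes with at least 1 count were kept. TCHH, the trichohyalin of inner root sheath and medulla, had 280.3 and 254 CPM in LGR5-high and 12.1 and 21.2 CPM in LGR5-negative. The log2 fold change was 4.00 (SE 0.268, edgeR quasi-likelihood adjusted p = 2.36e-04). PADI3 and PADI1, enzymes that convert arginine to citrulline in trichohyalin, had log2 fold changes of 2.86 and 3.52, and PRR9 had 1.33. Since trichohyalin is shared with the inner root sheath, the count and median of this list do not describe the shaft alone. PADI1, with 106 and 30 counts in LGR5-high and 7 and 3 in LGR5-negative, met the filter by LGR5-high only, and with 10 counts required in every library 3 shaft proteins were higher. SELENBP1, a selenium-binding protein, was lower with 38.5 and 43.3 CPM in LGR5-high and 244 and 320.3 CPM in LGR5-negative. DSG4, the desmoglein that joins cells of the shaft cortex, had 6.77 and 3.67 CPM in LGR5-negative and 3.23 and 1.63 CPM in LGR5-high. Within each pig DSG4 had less in LGR5-high, with log2 differences of -1.05 and -1.14. It was not called in the test without pigs (log2 fold change -1.10, adjusted p = 0.0914 from edgeR) and was called lower with pigs as a replicate block (adjusted p = 7.09e-04 from edgeR). S100A3, a calcium-binding protein of the hair cuticle, had 10.2 and 4.80 CPM in LGR5-negative and 9.37 and 11.9 CPM in LGR5-high, and was not called.

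Transcription factors and signals that act on the shaft lineage were split. All 12 were tested, 4 were higher, 6 were lower and 2 were not called, beside 22.7% higher and 22% lower among all tested genes. Their median log2 fold change was -0.16 with TMM and 0.06 with library size only. HOXC13, which binds hair keratin promoters and is needed for normal hair, had 109.99 and 86.2 CPM in LGR5-high and 30.1 and 27.2 CPM in LGR5-negative. It was higher in LGR5-high with a log2 fold change of 1.77 (SE 0.142, edgeR quasi-likelihood adjusted p = 4.11e-04). MSX1 was higher with 1.83, and FOXN1, the factor behind the nude phenotype, and LEF1, the WNT effector of the precortex, were higher with 0.64 and 0.62. OVOL1, a zinc finger factor of epidermal and hair differentiation, FOXQ1, a factor of the medulla, and PRDM1 were lower with -1.90, -1.63 and -1.09. GATA3, an inner root sheath factor, and DLX3, which is needed for the shaft, were lower with -0.90 and -0.75, and NOTCH1 with -0.38. MSX2 and BMPR1A had 0.23 and 0.05 and were not called. The 4 higher regulators were higher in the population in which KRT35 and KRT31 were lower, and the 6 lower regulators were lower there.

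**Figure D4:**
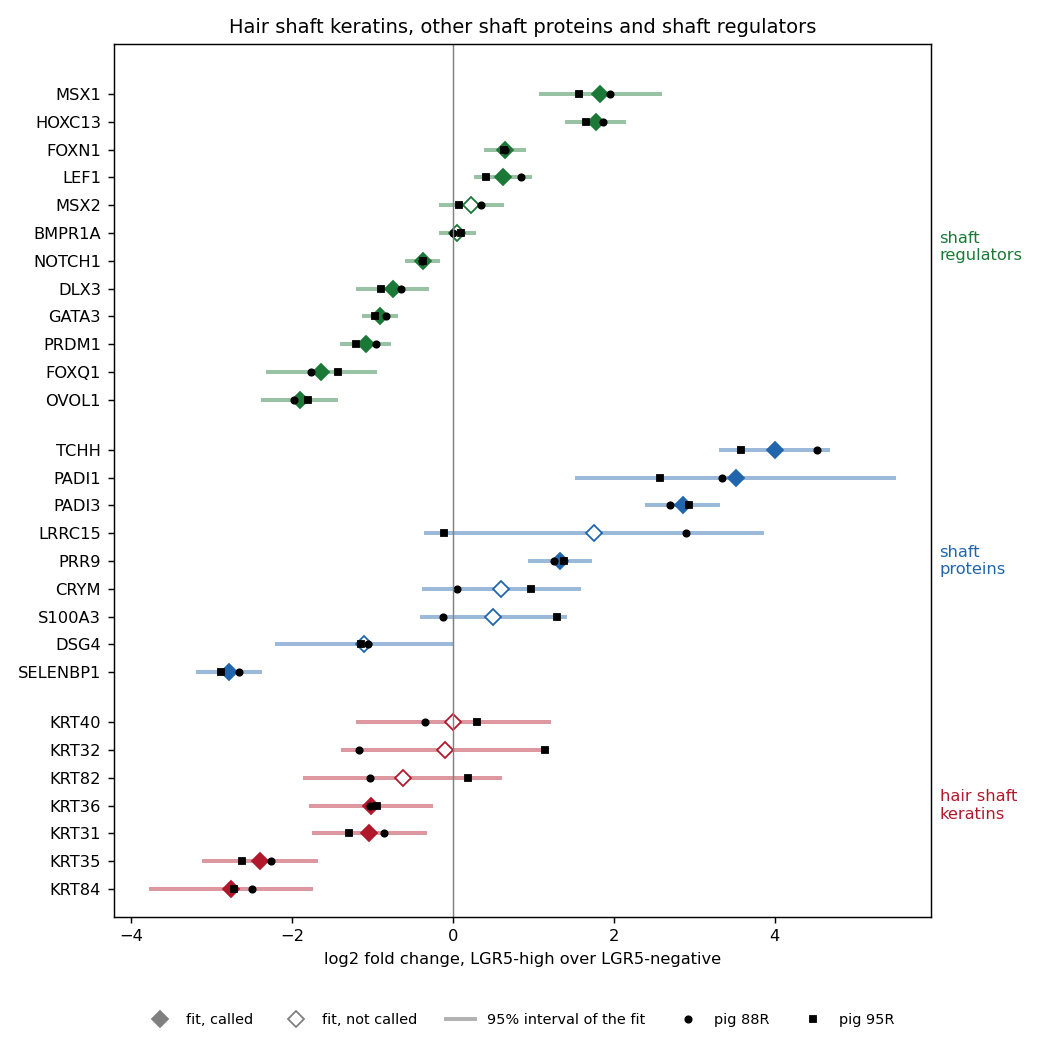
Log2 fold change of LGR5-high over LGR5-negative (horizontal axis) for the tested hair shaft keratins, other shaft proteins and shaft regulators (vertical axis), with diamonds for the edgeR fit, filled where called, bars for its 95% interval, and black circles and squares for pigs 88R and 95R. KRT35 and KRT84 lie below -2, TCHH lies at 4.00, and HOXC13 lies at 1.77.

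Of 15 cell cycle genes, read over all cells of each sorted population, 9 were higher and 0 lower in LGR5-high. Among all tested genes 22.7% were higher and 22% lower. The median log2 fold change of the 15 was 0.97. MKI67 had 189.6 and 135 CPM in LGR5-high and 105 and 51.5 CPM in LGR5-negative (log2 fold change 1.06, edgeR quasi-likelihood adjusted p = 0.0504), and TOP2A and CENPF were higher with 1.13 and 1.30. DESeq2 also called 9 of the 15 higher, but not TOP2A or CENPF (DESeq2 adjusted p = 0.0910 and 0.0799). With pigs as a replicate block, 12 were higher and 1 was lower, against 28.5% and 27.2% of all tested genes. Without LGR5-high of pig 88R only 1 was higher, and without LGR5-negative of pig 95R 4 were, with a median of 0.62.

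Markers of other skin cell types also differed between the populations, and their part in the hair shaft keratin values was not tested. Among all tested genes, 22.7% were higher and 22% lower in LGR5-high, and 28.5% and 27.2% with pigs as a replicate block. Of 8 melanocyte genes, all tested, 5 were lower in LGR5-high and 0 higher (6 and 1 with pigs as a replicate block), and their summed level was 64.5 and 64.2 CPM in LGR5-high and 86.7 and 264 CPM in LGR5-negative. PMEL, a pigment granule protein, had 9.74 and 6.45 CPM in LGR5-high and 31.5 and 120.2 CPM in LGR5-negative. Of the immune and Langerhans cell genes, 7 of 8 had a row, 5 were tested, 3 were lower and 1 higher, with sums of 21.1 and 15.6 CPM in LGR5-high and 161 and 136 CPM in LGR5-negative. MLANA of the melanocyte list and PTPRC and CD207 of the immune list met the filter by LGR5-negative and not by LGR5-high alone. The same held for CDH5 and KDR of the endothelial list and PDGFRA and LUM of the fibroblast list. These lower counts therefore describe the libraries and support nothing. The T cell genes CD3E and CD3G were at 0 in both LGR5-high libraries and under 0.2 CPM in LGR5-negative. Of 5 endothelial genes, 4 were lower and 0 higher, with sums from 6.11 to 20.9 CPM over the 4 libraries. Of 6 dermal fibroblast genes, COL1A1 and COL1A2 were higher and 4 were lower, among them LUM with 5 and 0 counts in LGR5-high and 47 and 31 in LGR5-negative, and the sums were 728 and 1009.8 CPM in LGR5-high and 404 and 248 CPM in LGR5-negative. Of 7 sebaceous genes, 5 were tested, SCD and MGST1 were higher and 0 were lower, with sums between 1151 and 1222 CPM in all 4 libraries. FASN made up most of these sums, with 824 and 742 CPM in LGR5-high and 923 and 859 CPM in LGR5-negative. MC5R, PPARG and AWAT2 had at most 0.545 CPM in any library. Of the hair shaft keratins with a row, all but KRT39 were above the floor in every library of both sorted populations. KRT39 was at or under it in both LGR5-negative libraries. In the list of other shaft proteins, LRRC15, PADI1, TCHHL1 and CRISP1 were at or under it in at least 1 library. Which cells held these reads was not tested.

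The summed counts of the hair shaft keratins, which mostly follow KRT35, were compared with 13658 genes of at least 1 CPM on average by the distance between centred log2 CPM profiles over the 4 libraries. Of the 5 nearest, 2 had no gene name, and the others were CLDN23, a claudin of tight junctions, UBASH3B and OVOL1, at distances of 0.133, 0.174 and 0.208. CLDN23 had 13.5 and 9.99 CPM in LGR5-negative and 3.46 and 2.27 CPM in LGR5-high. The distance describes 4 libraries of the same 2 pigs and has no test.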

How the data were processed

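RNA of LGR5-high and LGR5-negative cells from 2 pigs was sequenced as poly(A) libraries. The deposited table holds raw counts for each gene symbol and no normalization. The submitters' processing notes name Trimmomatic 0.36, STAR 2.5.2b, featureCounts and Subread 1.5.2, with no role or order, and the genome build, annotation and strand setting are not given in the sources used here. All 29837 named genes matched a RefSeq symbol of Sscrofa11.1, used for names and gene order only. Transcript lengths were not used here. CPM of different genes served to choose named genes, while shares and ratios between genes are of read counts, without correction for length. The 1 entry without a name, with 0.360% to 0.626% of the counts, was left out.

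The comparison of LGR5-high with LGR5-negative used edgeR 4.0.16 under R 4.3.3, with filterByExpr (minimum count 10, minimum total 15, 15980 genes kept), TMM, a quasi-likelihood test on the population alone and 2-sided Benjamini-Hochberg adjusted p-values, called under 0.05. Values of single pigs used a prior count of 2 and fits one of 0.125. Plots used matplotlib 3.10.9. The members and gene lists were chosen with earlier results of these data known. Named were all members, the called genes of each list with the largest changes, those with the highest CPM and the 5 nearest in pattern, and LEF1, GATA3, DLX3, NOTCH1, MSX2, BMPR1A, DSG4, S100A3 and the entries beside KRT84 were added or kept after their values were seen. Alternatives were DESeq2 1.42.0, limma-voom (limma 3.58.1), Student's test on log2(CPM + 1) (the test of the study's methods), other scalings, filters and adjustments, each library left out, and the pig as a replicate block. Libraries share a pig by the animal number in the labels, and after the population means were subtracted, the 2 libraries of a pig correlated at 0.370. Libraries of 1 population differed by more than counting noise (chi-square per degree of freedom 16.1 in LGR5-high and 18.1 in LGR5-negative). PCR reads are not independent molecules, so intervals and floors describe counting error alone.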

Additional observations from a re-analysis of the deposited data

How the results depend on the processing

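The direction of KRT31, KRT35, KRT36 and KRT84 was below 0 in LGR5-high under every alternative, and no alternative called a hair shaft keratin higher. The count of 4 lower members was 2 with library size only, 0 with Student's test on log2 CPM and 0 with Bonferroni adjustment, and between 2 and 5 with each library left out. With pigs as a replicate block it was 4, with log2 fold changes of -2.44 for KRT35, -2.78 for KRT84, -1.08 for KRT31 and -1.01 for KRT36, and the block changed no call of a hair shaft keratin. Library size only gave -0.81 for KRT31 and -0.79 for KRT36, neither called, while the median of all genes moved from 0.02 to 0.24. KRT36 was not called with upper quartile scaling (-0.92) or DESeq2 (-1.02). Student's test did not call KRT31 (-1.04), KRT35 (-2.42), KRT36 (-0.71) or KRT84 (-1.36), and Bonferroni adjustment did not call the same 4 at -1.04, -2.40, -1.02 and -2.76. KRT32 was 0.12 with library size only. KRT40 was -0.0015 with the DESeq2 size factors, -0.0030 with all genes of at least 1 count, -0.0043 with the replicate block, -0.0003 with DESeq2, -0.0421 with limma-voom and -0.0006 with Student's test. With each library left out, the log2 fold changes lay between -1.51 and -0.69 for KRT31, -0.65 and 0.76 for KRT32, -1.24 and -0.77 for KRT36, -0.37 and 0.30 for KRT40, and -1.22 and 0.39 for KRT82. Over all genes, 5473 were higher and 2326 lower with library size only (70.2% of calls higher in place of 50.9%), 544 and 502 with Student's test, 194 and 130 with Bonferroni adjustment, and 2279 to 3169 and 2139 to 3004 with each library left out, against 3632 and 3508. At least 10 counts in every library left out KRT84 and KRT40. The cause of these shifts was not tested.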
